A study of Mus musculus with 11 samples.

Results

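The genes described here carry and control T cell costimulation: Cd28, Icos, Ctla4, Cd5, Il2ra and Foxp3 on the T cell side, and Cd80, Cd86, Cd40 and Cd83 on the side of the antigen-presenting cell. They were chosen by symbol, as all probe sets to which the array's annotation gives exactly 1 gene symbol and that symbol is one of these. This gave 18 of the 22626 probe sets for 10 of the 12393 named genes, with 9 probe sets on each side. The question was how their transcripts were distributed over adventitia, the outer layer of the artery wall, with and without artery tertiary lymphoid organs (ATLOs), the lymphocyte aggregates that form beside atherosclerotic plaques.

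Signals came from 11 Affymetrix arrays of abdominal aortic adventitia from male mice aged 78 weeks. The ATLO group (4 arrays) was taken inside the lesion area of Apoe-deficient mice of the strain B6.129P2-Apoe<tm1Unc>/J, kept on normal chow. The outside-lesion group (4 arrays) came from the same strain, by its tissue label from outside the lesion area. The wild-type group (3 arrays) was from C57BL mice, and its titles also carry the letters PNS, which the labels do not explain. For the outside-lesion group the tissue label and the series' design text differ, as the latter speaks of mice without lesions. The tissue was cut from frozen sections with a laser, and each Apoe-deficient sample pooled 200 sections of 10 µm. Aortas had been taken out together with para-aortic lymph nodes, fat and connective tissue. The Apoe-deficient RNA was purified with a Micro kit and transcribed in vitro for 68 h, and the wild-type RNA with a Lipid Tissue kit and for 24 h. For both comparisons with wild type, genotype and RNA handling therefore cannot be told apart. Nothing in the labels ties each array to an animal of its own. The p-values therefore reflect only how far the arrays differ within a group, and that spread may be technical.

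A T cell needs a costimulatory signal beside its antigen receptor to become fully active. CD28 gives that signal when it binds CD80 or CD86 on a presenting cell, whereas CTLA4 binds the same ligands more tightly and restrains the response. ICOS is a relative of CD28 that appears on activated T cells and binds ICOSL, and CD40 on B cells, dendritic cells and macrophages receives CD40L from T cells. CD83 marks mature dendritic cells and activated B cells, and CD5 tunes antigen receptor signalling in T cells and in a subset of B cells. FOXP3 is the transcription factor that defines regulatory T cells, which also carry CTLA4 and the high-affinity interleukin 2 receptor chain IL2RA. Tertiary lymphoid organs hold T cell and B cell areas in which these contacts take place.

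As a check of the labels, the Apoe signal was between 86.9 and 150.2 units in the ATLO arrays, between 45.9 and 179.7 in the outside-lesion arrays and between 11969.4 and 13164.3 in the wild-type arrays. All arrays had been scaled to a common trimmed mean before deposit, with median signals between 151.5 and 191. The ratio of 3' to 5' actin signal, which rises as RNA is shortened, was 1.71 to 8.14 in ATLO, 6.22 to 12 in outside-lesion and 4.19 to 5.4 in wild-type arrays. ATLO replicate 2 and wild-type replicate 2 stood apart from their groups by high B cell marker signals, so the calls are also given without them. Without ATLO replicate 2 (likewise without ATLO replicate 1 or 4), Ctla4, Foxp3 and Cd86 1449858_at no longer passed the filter described below. A fit without ATLO replicate 2 that kept the same probe sets was therefore added after the data were seen. In tissue RNA, fewer cells of a type and less RNA per cell cannot be told apart, and this holds for every value below.

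In the mouse RefSeq annotation (GRCm38.p6), Cd28, Ctla4 and Icos are neighbours, with Ctla4 between the others and no other coding gene among them. The RefSeq promoter table held 6 windows for 5 of the 10 genes, Ctla4, Il2ra, Foxp3, Cd80 and Cd5. The 250 bases before the start are printed for Ctla4, for both starts of Foxp3 and for Cd5, because these transcripts moved in the same direction between ATLO and outside-lesion adventitia. The windows are chr1:60908775-60909024 on the plus strand for Ctla4, chrX:7579426-7579675 and chrX:7580233-7580482 on the plus strand for Foxp3, and chr19:10738975-10739224 on the minus strand for Cd5. Capitals mark the core letters GGAAA, or their complement TTTCC, bound by NFAT, the calcium-dependent factor that acts downstream of the antigen receptor.
Ctla4: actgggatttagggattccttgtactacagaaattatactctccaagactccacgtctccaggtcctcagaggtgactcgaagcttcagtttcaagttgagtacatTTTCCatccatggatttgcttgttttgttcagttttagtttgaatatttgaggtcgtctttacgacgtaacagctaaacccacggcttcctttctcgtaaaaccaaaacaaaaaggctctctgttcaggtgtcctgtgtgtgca
Foxp3, first start: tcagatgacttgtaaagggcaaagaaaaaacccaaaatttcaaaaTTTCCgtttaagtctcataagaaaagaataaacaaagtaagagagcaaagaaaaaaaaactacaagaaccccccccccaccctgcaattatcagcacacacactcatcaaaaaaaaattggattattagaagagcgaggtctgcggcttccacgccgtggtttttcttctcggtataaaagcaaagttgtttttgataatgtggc
Foxp3, second start: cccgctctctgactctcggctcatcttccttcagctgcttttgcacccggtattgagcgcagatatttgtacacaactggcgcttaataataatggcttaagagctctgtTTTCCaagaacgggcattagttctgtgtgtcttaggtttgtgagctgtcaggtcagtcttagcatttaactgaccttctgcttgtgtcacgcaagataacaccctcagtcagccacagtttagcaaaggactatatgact
Cd5: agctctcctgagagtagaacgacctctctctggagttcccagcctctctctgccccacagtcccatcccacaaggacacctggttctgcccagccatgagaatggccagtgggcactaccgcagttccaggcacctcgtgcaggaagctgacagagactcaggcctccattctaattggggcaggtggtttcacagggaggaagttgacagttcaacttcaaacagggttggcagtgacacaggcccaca

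The NFAT core was found once in the Ctla4 window, 144 bases before the start, and once in each Foxp3 window, 205 and 140 bases before it. The Il2ra window held it once, 190 bases before the start, and the Cd80 and Cd5 windows did not hold these letters. On both strands, 55.6% of all 32851 windows of the same length in the table held this short motif. Of the other motifs searched, the AP-1 letters TGANTCA (6.75% of all windows) occurred once, in the Cd80 window. The NF-kappaB consensus (0.356%), the forkhead letters TGTTTAC (3.17%) and the Runx letters TGTGGT (14.0%) occurred in none of the 6 windows. These matches describe the letters only.

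On the T cell side, Cd28, Icos, Cd5, Ctla4 and Foxp3 were higher in ATLO than in outside-lesion adventitia, each by at least 1 probe set, whereas Il2ra was too dim to be tested. Signals are in the arbitrary units of the scanner software and are given in replicate order. For testing they were raised to a floor of 35.1 units and taken to log2, so that differences of dim probe sets are understated. A call means a Benjamini-Hochberg adjusted p under 0.05 in limma over all 14988 probe sets tested, and errors of log2 changes are standard errors. Probe sets entered the fit if 3 or more arrays exceeded their own 40th percentile, which lay between 93.1 and 124.2 units. Cd5, Ctla4, Foxp3, both Icos probe sets, Cd28 1437025_at, Cd86 1449858_at and Cd40 1460415_a_at passed only through their ATLO arrays. This favoured a difference, so their p-values below are descriptions.

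Cd28, the founding costimulatory receptor, had 2 probe sets. Cd28 1417597_at read 447.8, 741.2, 259.3 and 494.8 in the ATLO arrays, 52.9, 137.9, 76.6 and 145 in the outside-lesion arrays, and 69.1, 143.3 and 44.1 in the wild-type arrays. Every ATLO array was above every other array, and the other groups overlapped. The log2 change was 2.26 ± 0.43 against outside-lesion (adjusted p = 0.00135) and 2.58 ± 0.46 against wild-type adventitia (adjusted p = 0.00166). The second probe set, Cd28 1437025_at, read 205.7, 322.5, 149.5 and 167.7 in ATLO, 5.3, 10.8, 82.9 and 128.5 in outside-lesion, and 11.2, 131.1 and 7.5 in wild-type arrays. ATLO again did not overlap either group, but 2 arrays of each other group were below the floor. Its log2 change was 1.75 ± 0.52 against outside-lesion (adjusted p = 0.0200) and 1.89 ± 0.56 against wild type (adjusted p = 0.0240). Both calls of this second probe set were lost without ATLO replicate 2, at adjusted p = 0.0684 and 0.0688, and in the fit without a filter, at 0.0646 and 0.0706. The call against outside-lesion was also lost without outside-lesion replicate 1 (adjusted p = 0.0568) or 2 (0.0525), with array weights (1.23, adjusted p = 0.0890), with the actin covariate (1.20, adjusted p = 0.238) and with the floor at the 10th percentile (2.56, adjusted p = 0.0512). That against wild type was also lost without wild-type replicate 1 (1.58, adjusted p = 0.0985) or replicate 3 (1.58).

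Icos, the receptor induced on activated and follicular helper T cells, gave the largest change of the set against outside-lesion adventitia, but its probe sets disagreed. Icos 1421931_at read 375.8, 328.4, 190.1 and 253.3 in ATLO, 10.4, 51.6, 49.6 and 14.1 in outside-lesion, and 77.2, 65.1 and 39.4 in wild-type arrays. The ATLO arrays were above all others without overlap. The log2 change was 2.72 ± 0.32 against outside-lesion (adjusted p = 4.88e-05) and 2.25 ± 0.35 against wild type (adjusted p = 6.41e-04). Icos 1421930_at read 219.4, 130.9, 147.3 and 67.4 in ATLO, 52.9, 82.4, 98.6 and 94.6 in outside-lesion, and 130.5, 111.6 and 100.7 in wild-type arrays. Here ATLO replicate 4 fell among the outside-lesion arrays and below all wild-type arrays. The differences of 0.70 ± 0.35 and 0.19 ± 0.38 were not called (adjusted p = 0.147 and 0.737). Without ATLO replicate 4 the first of them was 1.02, with an adjusted p of 0.0300.

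Ctla4, the inhibitory counterpart of Cd28, gave narrowly separated groups. Ctla4 1419334_at read 144.1, 233, 95.6 and 162 in ATLO, 44.1, 95.4, 62.8 and 80.8 in outside-lesion, and 83.1, 92.7 and 50.4 in wild-type arrays. The groups did not overlap, but the lowest ATLO array exceeded the highest outside-lesion array by less than 1 unit. The log2 change of 1.15 ± 0.35 against outside-lesion adventitia was called (adjusted p = 0.0241), whereas that of 1.05 ± 0.38 against wild type was not (adjusted p = 0.0579). The first call was lost without outside-lesion replicate 1 (adjusted p = 0.0658) or replicate 3 (adjusted p = 0.0526). In the fit without ATLO replicate 2 that kept the same probe sets, it was lost too (0.94, adjusted p = 0.0829). With the actin ratio as a covariate it was also lost, and the change fell to 0.48 (adjusted p = 0.414). The change against wild type was called after quantile normalization, with equal array medians and without the intensity trend. It was also called without ATLO replicate 3 or outside-lesion replicate 1. The lowest adjusted p among these limma fits was 0.0304.

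Cd5, a tuner of antigen receptor signalling, separated the groups with little spread. Cd5 1418353_at read 217.9, 328.6, 193 and 235.7 in ATLO, 80.2, 68.7, 67.9 and 65.5 in outside-lesion, and 95.9, 122 and 96.5 in wild-type arrays. All 3 groups were free of overlap, with ATLO highest and outside-lesion lowest. The ATLO log2 change was 1.76 ± 0.24 against outside-lesion (adjusted p = 1.10e-04) and 1.20 ± 0.25 against wild type (adjusted p = 0.00443). The lower outside-lesion level, a log2 change of -0.57 from wild type, was not called (adjusted p = 0.208).

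Foxp3, which defines regulatory T cells, was close to the detection range of the arrays even where it was highest. Foxp3 1420765_a_at read 113.5, 112.9, 87.8 and 119.1 in ATLO, 29, 38.5, 60.8 and 67 in outside-lesion, and 39.7, 79.6 and 55.1 in wild-type arrays. All ATLO arrays were above all others, although their median lay only at percentile 40.7 of its array. Against outside-lesion adventitia the log2 change of 1.15 ± 0.35 was called (adjusted p = 0.0216). Against wild type the change of 0.95 ± 0.37 was not called (adjusted p = 0.0775), though it was after quantile normalization (1.08, adjusted p = 0.0460). It was also called without the intensity trend. The call against outside-lesion adventitia was lost without outside-lesion replicate 1 (adjusted p = 0.0548), without ATLO replicate 2 with the same probe sets kept (1.13, adjusted p = 0.0538), with the actin covariate (0.98, adjusted p = 0.171), and with the floor at the 40th percentile (0.07, adjusted p = 0.605).

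Il2ra, the interleukin 2 receptor chain of regulatory and freshly activated T cells, did not pass the filter. Il2ra 1420692_at read 85.6, 82.4, 88 and 64.3 in ATLO, 80.3, 60, 8.3 and 7.8 in outside-lesion, and 54.5, 30.3 and 28 in wild-type arrays. ATLO was above wild type without overlap and overlapped the outside-lesion arrays. In a fit without the filter its log2 changes of 0.69 and 0.97 were not called (adjusted p = 0.138 and 0.0654). Il2ra 1420691_at lay between 54.7 and 58.1 in ATLO, between 34.8 and 77.3 in outside-lesion and between 32.4 and 46.2 in wild-type arrays. A difference in Il2ra between ATLO and outside-lesion adventitia was thus not detectable at this signal.

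**Figure D1:**
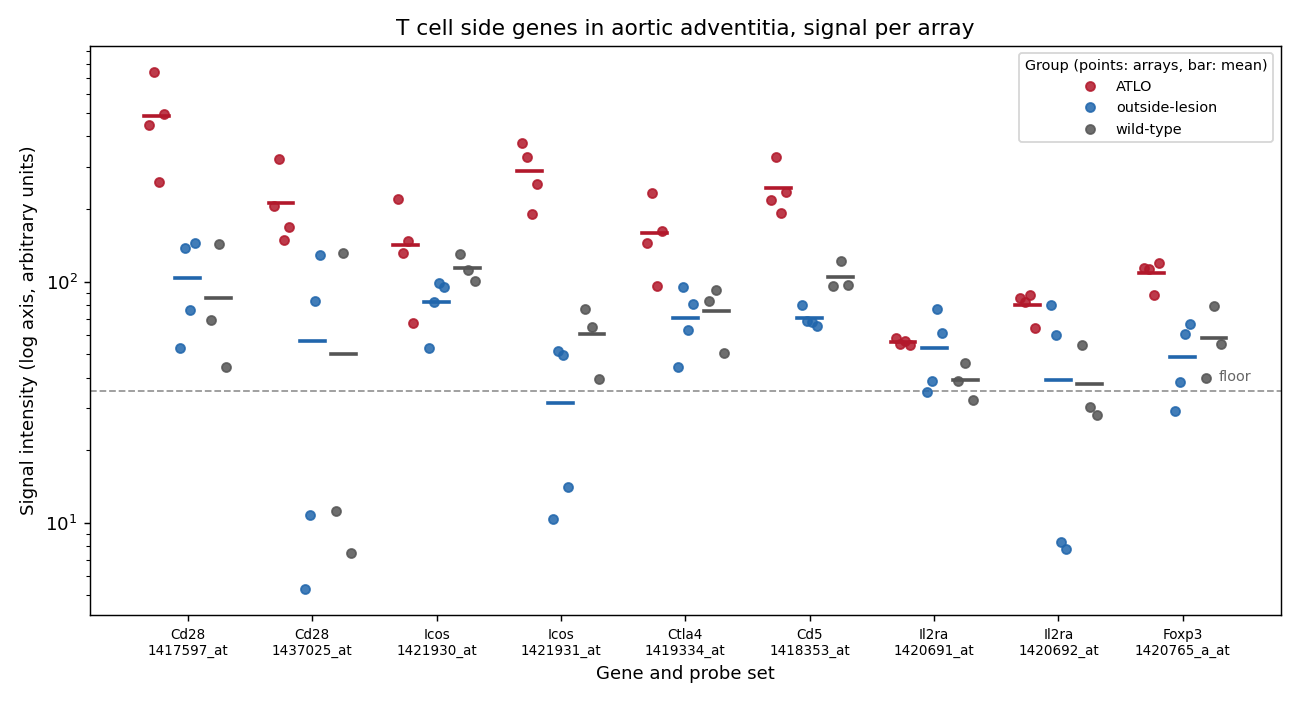
Signal of each T cell side probe set per array (log axis, arbitrary units), with a point for each ATLO, outside-lesion and wild-type array, a bar for the group mean and a dashed line for the floor. The ATLO points of Cd28, Cd5, Ctla4, Foxp3 and Icos 1421931_at lie above all other points, while Icos 1421930_at and both Il2ra probe sets overlap the outside-lesion points.

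On the presenting side, Cd86, Cd40 and Cd83 were higher in ATLO than in either other tissue by every tested probe set, and Cd80 was too dim to be tested. Cd80 and Cd86 are the ligands that CD28 and CTLA4 share.

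Cd86 1420404_at read 416.7, 461.5, 470.4 and 379 in ATLO, 165.3, 124.5, 164.8 and 180.6 in outside-lesion, and 229.5, 338.2 and 220.5 in wild-type arrays. The 3 groups did not overlap, and wild type lay between the others. The ATLO log2 change was 1.45 ± 0.19 against outside-lesion (adjusted p = 1.09e-04) and 0.74 ± 0.21 against wild type (adjusted p = 0.0195). The second call was lost without wild-type replicate 1 (adjusted p = 0.0792) or replicate 3 (adjusted p = 0.0846). Outside-lesion adventitia was below wild type by a log2 change of -0.71 ± 0.21 that was not called (adjusted p = 0.0797). With array weights this change was -0.73 and was called (adjusted p = 0.0362).

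The other Cd86 probe set was close to the floor outside ATLO. Cd86 1449858_at read 173.1, 264.7, 102.4 and 117.6 in ATLO, 25.1, 58.2, 12.3 and 15.3 in outside-lesion, and 6.2, 102.2 and 17.4 in wild-type arrays. The lowest ATLO array exceeded wild-type replicate 2 by less than 1 unit, and the other wild-type arrays were below the floor. The log2 change was 1.94 ± 0.43 against outside-lesion (adjusted p = 0.00388) and 1.61 ± 0.47 against wild type (adjusted p = 0.0218). The call against wild type was lost without wild-type replicate 1 (adjusted p = 0.0901) or replicate 3 (adjusted p = 0.0921). Without ATLO replicate 2, with the same probe sets kept, the change against outside-lesion was 1.67 (adjusted p = 0.0181) and that against wild type was not called (1.34, adjusted p = 0.0688). The floor at the 40th percentile ended both calls, with a change of 0.52 in each comparison (adjusted p = 0.0934 and 0.123).

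Cd80 had 4 probe sets, none of which passed the filter. Cd80 1432826_a_at read 81.5, 78.3, 98.8 and 88.8 in ATLO, 52.4, 3.1, 4.4 and 3.4 in outside-lesion, and 6.2, 12.1 and 25.4 in wild-type arrays. All ATLO arrays were above the others, and outside-lesion replicate 1 stood apart in its group. Without the filter, its log2 change was 1.16 ± 0.13 against outside-lesion (adjusted p = 7.42e-04) and at least 1.30 ± 0.14 against wild type (adjusted p = 0.00125), where all arrays were at the floor. The other Cd80 probe sets gave no call in that fit. Cd80 1451950_a_at was between 42.4 and 71.6 in ATLO, 27.7 and 111.9 in outside-lesion, and 64.7 and 101.4 in wild-type arrays. Cd80 1427717_at and 1454372_at stayed below 60 units on every array. The probe sets of Cd80 therefore did not give the same picture.

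Cd40, the receptor through which T cells license presenting cells and help B cells, had probe sets that gave like answers. Cd40 1449473_s_at read 305.4, 537.6, 285.2 and 452.6 in ATLO, 91, 79, 114.9 and 123 in outside-lesion, and 92.8, 157.5 and 51.1 in wild-type arrays. The ATLO arrays were all higher, and the other groups overlapped. The log2 change was 1.93 ± 0.33 against outside-lesion (adjusted p = 6.88e-04) and 2.07 ± 0.36 against wild type (adjusted p = 0.00137). Cd40 1460415_a_at read 145.9, 364, 135.7 and 305.1 in ATLO, 57.9, 43.5, 31.1 and 47.1 in outside-lesion, and 82.4, 115.9 and 14.9 in wild-type arrays. ATLO did not overlap the others here either. Its log2 changes were 2.26 ± 0.43 (adjusted p = 0.00126) and 1.64 ± 0.46 (adjusted p = 0.0187). The second of these was not called without ATLO replicate 2 (adjusted p = 0.0590), ATLO replicate 4 (adjusted p = 0.0563) or wild-type replicate 3 (adjusted p = 0.0942).

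Cd83, the maturation marker of dendritic cells, had the only probe set called against wild type in which arrays of the groups overlapped. Cd83 1416111_at read 628.5, 1429.4, 624 and 922.3 in ATLO, 199, 211.7, 223.7 and 252.8 in outside-lesion, and 283, 739.7 and 330.5 in wild-type arrays. ATLO and outside-lesion arrays did not overlap, but wild-type replicate 2 was above ATLO replicates 1 and 3. The log2 change was 1.94 ± 0.31 against outside-lesion (adjusted p = 3.72e-04) and 1.05 ± 0.33 against wild type (adjusted p = 0.0334). Leaving out wild-type replicate 2 gave 1.47 (adjusted p = 0.00561). The call against wild type was lost without ATLO replicate 2 (0.80, adjusted p = 0.0861), ATLO replicate 4 (adjusted p = 0.0714), wild-type replicate 1 (adjusted p = 0.150) or wild-type replicate 3 (adjusted p = 0.124). That call was also lost in the fit without a filter, with array weights and with only the compared groups. All outside-lesion arrays were below all wild-type arrays, a change of -0.89 ± 0.33 that was not called (adjusted p = 0.145).

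**Figure D2:**
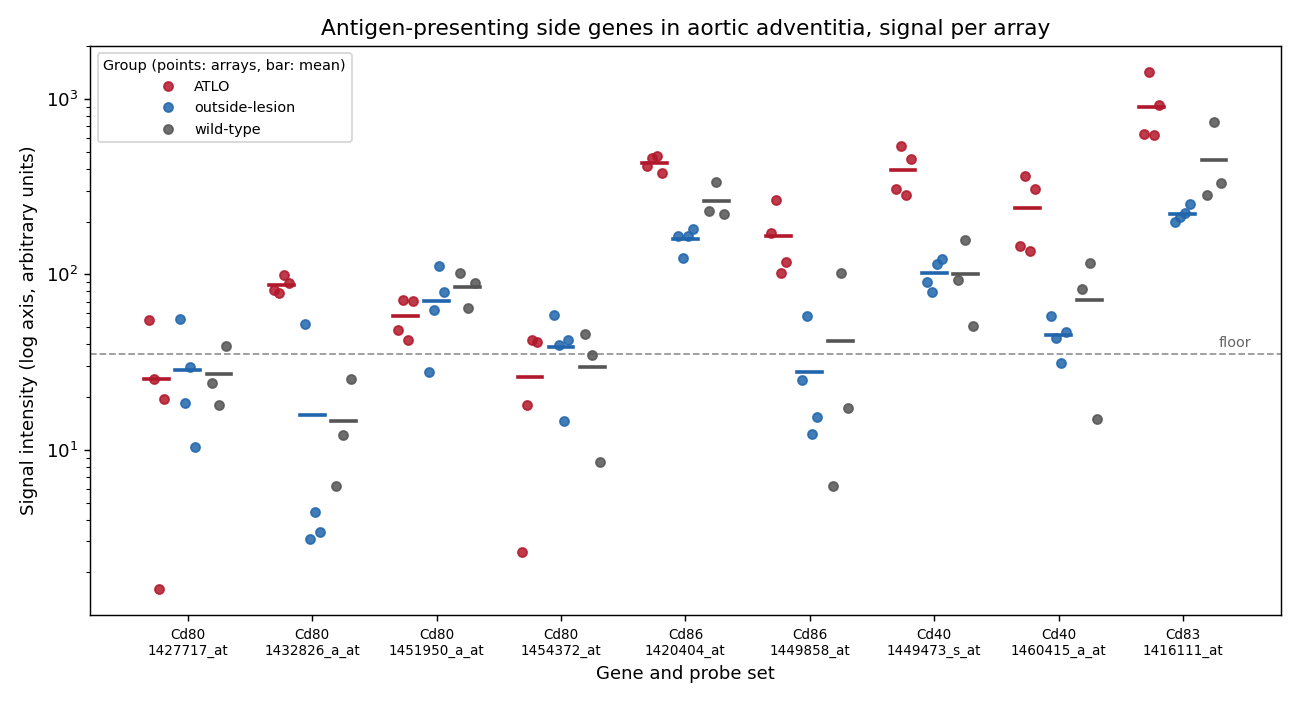
Signal of each presenting side probe set per array (log axis, arbitrary units), with a point for each ATLO, outside-lesion and wild-type array, a bar for the group mean and a dashed line for the floor. Both Cd86 and both Cd40 probe sets have all ATLO points on top, and in Cd83 the highest wild-type point, 739.7, lies among the ATLO points.

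Counted over the set, 12 of the 18 probe sets were tested, for 8 of the 10 genes. Of these 12, 8 passed the filter only through their ATLO arrays. This favoured a difference without fixing it, as Icos 1421930_at, one of the 8, was called in neither comparison with ATLO. The counts that follow are therefore descriptions. Against outside-lesion adventitia, 11 of 12 were called higher in ATLO and 0 lower, where 17.9% of all probe sets tested were called higher. The T cell side had 6 of 7 called with a median log2 change of 1.75, and the presenting side 5 of 5 with a median of 1.94. The median of all probe sets tested was 0.10. Without any filter 11 of the 18 were called higher, beside 10.8% of all 22626. Over all 18, whether tested or not, 12 had every ATLO array above every outside-lesion array, beside 12.5% of all probe sets.

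Against wild type, with the same ATLO arrays, 9 of 12 were called higher and 0 lower, where 13.4% of all probe sets tested were called higher. These were 4 of 7 on the T cell side, with a median of 1.20, and 5 of 5 on the presenting side, with a median of 1.61. The median of all probe sets tested was -0.05. The 3 not called were Ctla4, Foxp3 and Icos 1421930_at. Without the filter 8 of 18 were called higher, beside 7.88% of all probe sets.

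Between outside-lesion and wild-type adventitia, 0 of 12 were called by limma in either direction, where 3.26% of all probe sets tested were called. In the fit without a filter 0 of 18 were called, beside 1.33% of all probe sets, and 3 had an unadjusted p under 0.05. The median log2 change was -0.40, against -0.11 for all probe sets tested. The probe sets Cd5, Cd83, Cd86 1420404_at and Icos 1421930_at had every outside-lesion array below every wild-type array, which held for 13.3% of all probe sets tested. The sign of the small Ctla4 difference, -0.10, turned to 0.11 after quantile normalization and to 0.07 with equal array medians.

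**Figure D3:**
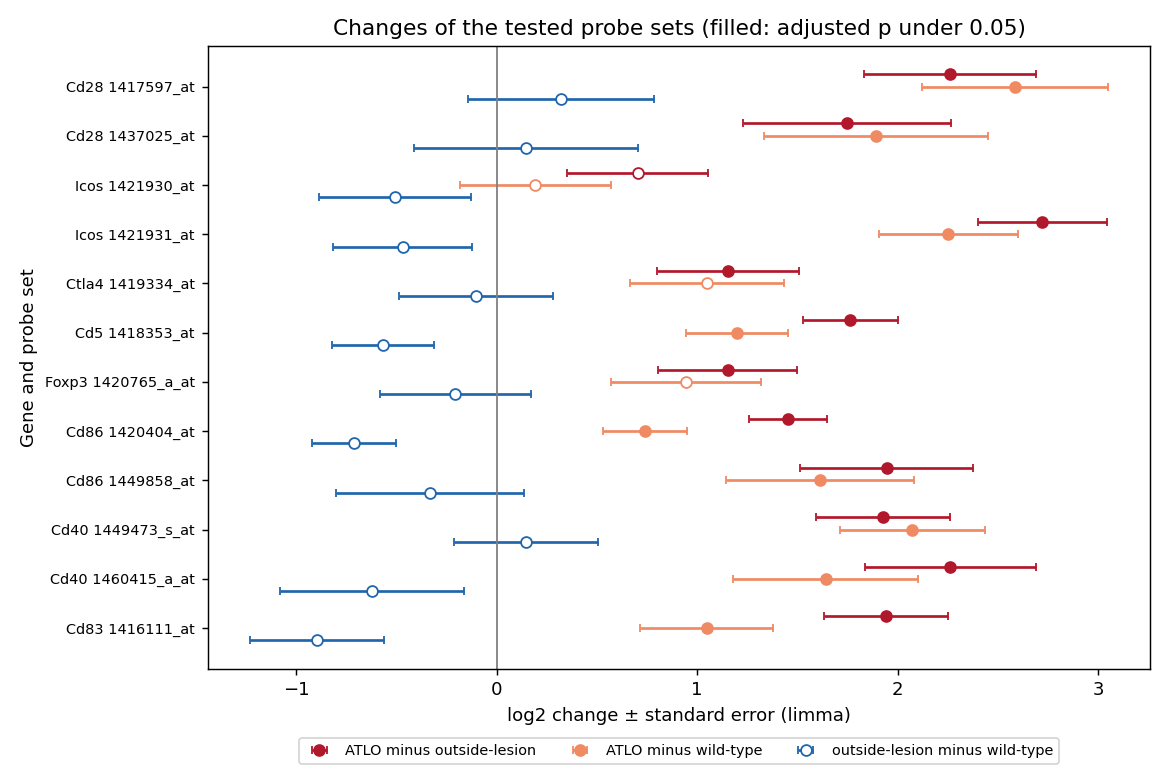
Log2 change with its standard error from limma for the 12 tested probe sets (x axis) in each of the 3 comparisons, with filled points where the adjusted p was under 0.05. ATLO minus outside-lesion is filled for 11 probe sets, ATLO minus wild-type for 9, and outside-lesion minus wild-type for 0.

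Certain libraries stood apart in this set. ATLO replicate 2 was the highest of its group in 8 of the 12 tested probe sets, and wild-type replicate 2 in 10 of 12. Without ATLO replicate 2, 9 probe sets passed the filter, of which 7 were called against outside-lesion and 5 against wild-type adventitia. With the same 12 probe sets kept, 8 and 5 were called. Without wild-type replicate 2, 9 of 12 were called against wild type, but only 5 without wild-type replicate 1 and 4 without wild-type replicate 3. Without outside-lesion replicate 1, 8 of 12 were called against outside-lesion adventitia. The actin covariate left 7 of 12 called in that comparison and 9 of 12 against wild type. The second Cd28 probe set and Cd86 1449858_at were among the 4 lost (adjusted p = 0.238 and 0.102).

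Markers of the cells that carry these transcripts moved with them. The gene lists from here on passed the same filter, which can let in a gene through its ATLO arrays alone. How many came in so was not counted, and the list counts and their p-values are descriptions too. Of 12 T cell marker genes, 11 were called higher in ATLO than in outside-lesion adventitia, with a median log2 change of 2.13, where 17.9% of all probe sets tested were called higher and 13.9% lower. Examples were the antigen receptor chain Cd3e, at 351 ± 93.4 units in ATLO and 88.3 ± 74.9 in outside-lesion (SD, n = 4 each; 2.25 ± 0.52, adjusted p = 0.00504), and Cd8a (1.96 ± 0.36, adjusted p = 9.83e-04). The other Cd8a probe set did not pass the filter. It read 73 to 223.7 units in ATLO, 27.1 to 83.7 in outside-lesion and 76.4 to 106 in wild-type arrays. Its ATLO arrays thus overlapped both other groups. Neither probe set of Cd4 was tested. The brighter read 31.9 to 272.9 units in ATLO and 7.7 to 30.5 in outside-lesion arrays. The dimmer overlapped, at 7.4 to 37.9 in ATLO and 3.2 to 9.1 in outside-lesion arrays. The summed signal of the 12 genes was 7557.3 to 10256.8 in ATLO, 2117.4 to 3051.6 in outside-lesion and 2677.7 to 3285.9 in wild-type arrays. Thy1 and Zap70 were the brightest of them in outside-lesion arrays, at means of 1006 and 472 units. Zap70, the marker not called, had a mean of 381 units in ATLO and 586 in wild-type arrays. Its log2 changes in ATLO were -0.12 against outside-lesion and -0.65 against wild-type adventitia. The marker Sh2d2a was at the floor in every outside-lesion array. The called probe sets of the T cell side rose beside a T cell marker sum whose ATLO arrays did not overlap the others, and the part of these markers in the result was not tested.

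Relative to the mean log2 signal of the 12 T cell markers, which rose by 2.11 between outside-lesion and ATLO adventitia, 5 of the 7 T cell side probe sets differed by less and 2 by more. The 2 were Cd28 1417597_at, by 0.15, and Icos 1421931_at, by 0.61 more on the log2 scale, both with overlapping arrays. Foxp3 and Ctla4 differed by -0.96 each, also with overlap, and Cd5 by -0.35, with all ATLO ratios below all outside-lesion ratios. Against wild type these ratios were -0.89 for Foxp3, -0.79 for Ctla4 and -0.64 for Cd5, each without overlap between ATLO and wild-type arrays. Icos 1421930_at differed by -1.41 against outside-lesion, with overlap, and by -1.65 against wild type, without overlap. Cd28 1437025_at differed by -0.36 and 0.05, both with overlap. All these ratios are descriptions with no test. At the floor were 1 outside-lesion array of Foxp3 and 2 each of Icos 1421931_at and Cd28 1437025_at.

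Markers of presenting cells were also higher. Over all probe sets tested, 17.9% were called higher against outside-lesion adventitia and 13.9% lower. Of 11 B cell markers, 10 were called higher against outside-lesion adventitia (median 2.74), among them the B cell coactivator Pou2af1 (4.37 ± 0.75, adjusted p = 6.49e-04) and Ms4a1, which encodes CD20 (2.88 ± 0.86, adjusted p = 0.0205). Of 8 dendritic cell markers 7 were called higher (median 1.61), with Itgax at 2.45 ± 0.24 (adjusted p = 1.95e-05) and Fscn1 at 0.88 ± 0.23 (adjusted p = 0.0107). MHC class II genes were called higher in 6 of 8 (median 1.89) and macrophage markers in 14 of 15 (median 1.61). The brightest of these did not all move: Cd74 rose by 1.84 ± 0.26 and Lyz2 by 1.39 ± 0.31, while H2-Aa (0.22 ± 0.27, adjusted p = 0.573) and Csf1r (0.37 ± 0.24, adjusted p = 0.260) were not called. Adipocyte markers were called lower in 9 of 10 (median -1.77) and endothelial markers in 6 of 9 (median -0.79). The adipocyte markers of highest signal were Fabp4 (-1.14 ± 0.36, adjusted p = 0.0278, with overlapping arrays) and Adipoq (-1.43 ± 0.22, adjusted p = 2.88e-04). The endothelial ones were Kdr (-1.43 ± 0.16, adjusted p = 3.40e-05) and Esam, which was not called (-0.53 ± 0.21, adjusted p = 0.0711).

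The B cell marker sum varied widely within groups. It was 12276.6 to 30271.6 in ATLO, 1400.4 to 3166.9 in outside-lesion and 1251.7 to 8598.6 in wild-type arrays. Its highest ATLO array was replicate 2 and its highest wild-type array replicate 2, the same arrays that were highest in every Cd28, Ctla4, Cd40 and Cd83 probe set. The dendritic cell sum was 4239.2 to 5222.8 in ATLO, 1896.6 to 2271.7 in outside-lesion and 1459.9 to 1885.3 in wild-type arrays, with the migration receptor Ccr7 at the floor in both latter groups. The macrophage sum was 60500.9 to 97991.2, 20582.1 to 37702 and 27190.4 to 37937.3, and ATLO replicate 2 was the lowest ATLO array in it. Their part in the Cd86, Cd40 and Cd83 differences was not tested.

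**Figure D4:**
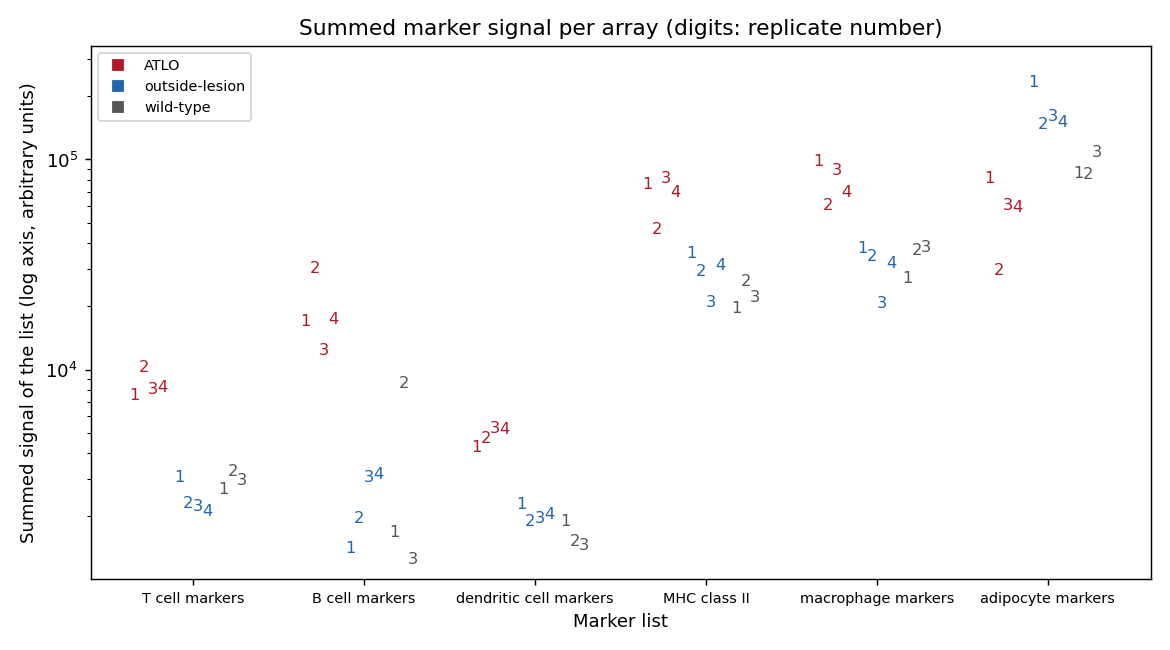
Summed signal of each marker list per array (log axis, arbitrary units), with a digit for the replicate number and a colour for the group. ATLO replicate 2 is the highest ATLO array for T cell and B cell markers and the lowest for MHC class II, macrophage and adipocyte markers, and wild-type replicate 2, at 8598.6, is the highest wild-type array for B cell markers.

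The other costimulatory and checkpoint receptors and ligands rose broadly. Of 21 tested, 17 were called higher in ATLO than in outside-lesion adventitia and 0 lower, with a median log2 change of 1.21. Over all probe sets tested, 17.9% were higher and 13.9% lower. The change was at least 2.64 for the inhibitory receptor Pdcd1, at 221 ± 32.1 against 19.1 ± 14.4 units, since all outside-lesion arrays were at the floor (adjusted p = 2.71e-05). It was 2.49 ± 0.27 for the adhesion ligand Cd48 (adjusted p = 3.02e-05) and 2.16 ± 0.36 for Tnfrsf18, which encodes the regulatory T cell receptor GITR (adjusted p = 5.41e-04). Tnfrsf9, which encodes 4-1BB, changed by 2.02 ± 0.43 (adjusted p = 0.00307), and Tnfrsf4, which encodes OX40, by 1.73 ± 0.26 (adjusted p = 2.45e-04). Receptors of both activating and inhibitory kinds were thus among those that rose. Of these, Pdcd1 passed the filter only through its ATLO arrays, as no other array exceeded 46.4 units. Tnfrsf9 could not have passed without its ATLO arrays either, at 54.8 ± 41.5 units in outside-lesion and 44.1 ± 31.3 in wild-type arrays.

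The partners of the receptors in the set behaved unequally. Icosl, the ligand of ICOS, was 604 ± 83.8 units in ATLO and 355 ± 66.2 in outside-lesion arrays (0.78 ± 0.19, adjusted p = 0.00711), but its other probe set overlapped, at 96.2 to 155 against 77.1 to 145.6. Cd274, which encodes PD-L1, the ligand of PDCD1, read 309 ± 57.3 in ATLO and 402 ± 184 in outside-lesion arrays and was not called (-0.29 ± 0.28, adjusted p = 0.457). Cd40lg, the ligand of CD40, was not tested, at 17.8 to 28 units in ATLO, 14.3 to 65.4 in outside-lesion and 22.8 to 90.2 in wild-type arrays. The highest Cd40lg array was thus a wild-type one.

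Against wild type, 7 of the 21 were called higher and 0 lower (median 0.70), beside 13.4% of all probe sets called higher. Pdcd1 changed by 2.51 ± 0.30 (adjusted p = 1.49e-04), Tnfrsf9 by 2.26 ± 0.47 (adjusted p = 0.00377), Cd48 by 2.06 ± 0.29 (adjusted p = 3.84e-04) and Tnfrsf18 by 1.93 ± 0.39 (adjusted p = 0.00339). Neither Tnfrsf4 (0.70 ± 0.28, adjusted p = 0.0795) nor Icosl (0.48 ± 0.21, adjusted p = 0.101) was called. Between outside-lesion and wild-type adventitia the only member of the list called was Cd200, an inhibitory ligand, which was lower outside the lesion (-0.70 ± 0.17, adjusted p = 0.0479).

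A list of 21 genes of costimulatory signalling also held genes that restrain signalling, such as Ptpn22. Of the 21, 15 were called higher against outside-lesion adventitia (median 0.87) and 13 against wild type (median 0.76), with 0 lower in either. The shares of all probe sets called higher were 17.9% and 13.4%. Vav1, a guanine nucleotide exchange factor downstream of CD28, changed by 2.93 ± 0.30 and 3.27 ± 0.32. Ptpn22, a phosphatase that restrains the antigen receptor, changed by 2.62 ± 0.41 and 2.62 ± 0.44. Traf1 and Nfkb2, which act downstream of CD40 and other receptors of its family, changed by 2.67 ± 0.34 and 2.48 ± 0.49 against outside-lesion and by 2.06 ± 0.36 and 2.44 ± 0.53 against wild-type adventitia. The adjusted p of these 8 changes lay between 2.20e-05 and 0.00501.

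Of 24 further genes of regulatory T cells and the interleukin 2 axis, 15 were called higher and 2 lower against outside-lesion adventitia (median 0.97), and 10 higher and 0 lower against wild type (median 0.64). Over all probe sets tested, 17.9% were higher and 13.9% lower in the first comparison and 13.4% higher in the second. The chemokine receptor Ccr6 rose by 2.53 ± 0.41, Il2rb by 2.43 ± 0.36, and the transcription factors Batf and Prdm1 by 2.10 ± 0.42 and 1.99 ± 0.31. The 2 that were lower were the lectin Lgals1 (-0.71 ± 0.24, adjusted p = 0.0397) and the interleukin 2 signal transducer Stat5a (-0.67 ± 0.20, adjusted p = 0.0208). Il2rb, a shared chain of the interleukin 2 receptor, had a second probe set that overlapped between the groups, at 9.6 to 145.3 units in ATLO and 13.7 to 125.8 in outside-lesion arrays. Against wild type the largest called were Ccr6 (2.14 ± 0.45), Bach2 (1.75 ± 0.44), Il2rb (1.69 ± 0.39) and Prdm1 (1.59 ± 0.34). Ccr6, Batf, Prdm1 and Bach2 are also known from B cells, so the list is not particular to regulatory T cells.

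Interleukin 2, the cytokine on which regulatory T cells depend, and Ikzf2, which encodes their transcription factor Helios, could not be compared. Il2 and Ikzf2 were not tested, with Il2 at 1.8 to 61.5 units in ATLO and 2.3 to 42.7 in outside-lesion arrays and Ikzf2 at 4.9 to 52 and 4.1 to 13. The regulatory cytokine Il10 was not tested either, at 86.9 to 129.2 in ATLO, 57.3 to 89.6 in outside-lesion and 71.2 to 89.6 in wild-type arrays. Tgfb1 was 195 ± 28.2 in ATLO and 145 ± 28.1 in outside-lesion arrays and was not called (0.44 ± 0.21, adjusted p = 0.131).

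Across the 11 arrays the 8 tested genes went together, each represented by its brightest probe set. Their 28 pairwise Pearson correlations of log2 signal ran from 0.69, for Cd86 with Ctla4, to 0.952, for Ctla4 with Cd28, with a median of 0.861. The points share the group structure, so these values describe the contrast of ATLO with the rest as much as any relation within it. Over the same arrays the genes most like Cd28 were Gimap4 (0.983), Map4k1 (0.977) and Ms4a4c (0.975). Those most like Icos were Ptpre (0.981), Tap1 (0.978) and B3gnt9 (0.978), and those most like Ctla4 were Evl (0.975), Zfp958 (0.955) and Cd28 (0.952). For Cd5 they were Klrd1 (0.979), Trim30a (0.979) and Il16 (0.978), and for Foxp3 Ubp1 (0.963), Blk (0.962) and Eomes (0.961). On the presenting side, Cd86 was most like Lpcat1 (0.97), Slc9a3r1 (0.966) and Tpd52 (0.964). Cd40 was most like Tlr1 (0.985), Sema4d (0.98) and Ly6d (0.978), and Cd83 most like Wipf1 (0.981), Cd22 (0.977) and Rbl1 (0.975). Blk and Cd22 are known as B cell genes, and Gimap4 and Klrd1 as lymphocyte genes.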

How the data were processed

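The arrays of 11 samples were read as the deposited linear signal intensities per probe set. Per the submitters' processing notes, GCOS 1.4 was the authors' tool, and how it summarised probes is not given in the sources used. Detection calls were left aside. The number of arrays limits the precision. Of 22690 probe sets, 64 controls were left out. Of the other 22626, 20380 had 1 gene symbol in the platform annotation, 691 had several and 1555 had none.

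Intensities below 35.1, the 20th percentile over the table, were set to it, and log2 was taken. Probe sets with at least 3 arrays above their own 40th percentile (14988) were fitted over all 11 arrays with a mean per group in limma 3.58.1 (R 4.3.3, intensity trend). Benjamini-Hochberg adjusted p-values under 0.05 were called, and the fit was tested on simulated data. For lists, the brightest probe set stood for a gene.

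All probe sets of the 10 genes are named. Also named are the 3 genes most like each in Pearson correlation, the 4 called genes with the largest change of each pathway list, a fixed set of partners, and the brightest markers of other cells. Stat5a, Lgals1, Ccr7, Sh2d2a, Thy1 and Zap70 fall outside this rule and were chosen after their values were seen. Il2rg and Lck were to be named but were not analysed here. The genes and lists were chosen with earlier results of these data known. Promoters were taken from RefSeq (GRCm38.p6).

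Alternatives were quantile normalization, equal medians, other floors and filters, only the compared groups, a replicate block, array weights, no trend, a 2-fold threshold, an actin covariate and each array left out. A fit without ATLO replicate 2 with the same probe sets kept was chosen after seeing the data.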

Additional observations from a re-analysis of the deposited data

Results flagged for a closer look

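The Cd80 probe set 1432826_a_at in outside-lesion replicate 1, at 52.4 units, stood far from the other 3 outside-lesion arrays. These read 3.1 to 4.4, below the floor of 35.1 units, where differences between arrays say little. Replicate 1 was the only such case in 36 groups looked at, and chance alone gives about 1 in 20.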

How the results depend on the processing

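Over all alternatives, 726 of 813 recomputed log2 changes of single probe sets kept their direction and their side of the threshold. Of the others, 60 lost a call (19 of them under the 2-fold threshold), 9 gained one and 18 turned sign. None of the 18 was called with either sign, and the cause was not tested. For ATLO against outside-lesion adventitia, the 11 calls among the costimulation probe sets became 4 of 4 with the filter at the 60th percentile, where fewer probe sets were tested. They became 1 (Icos 1421931_at) when a change over 2-fold was tested and 7 with the actin covariate, and 7 to 11 as each array was left out. Against wild type the 9 calls became 4 of 4 and 0 under the first 2 of these, and 4 to 10 as each array was left out. Between outside-lesion and wild type the 0 calls became 1 with array weights and stayed at 0 as each array was left out. Without ATLO replicate 2 but with the same probe sets kept, a fit chosen after seeing the data, the calls in the 3 comparisons were 8, 5 and 0.

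Over all probe sets, the 4777 calls of ATLO against outside-lesion became 408 under the 2-fold threshold, 2552 with the actin covariate, and 3968 to 4689 as each array was left out. The 4012 against wild type became 141 under the 2-fold threshold and 2731 to 4232. The 489 of outside-lesion against wild type became 301 without a filter, 202 with only the compared groups, 1530 with array weights, 248 without the intensity trend, 2 under the 2-fold threshold, 86 with the actin covariate and 21 to 887 as each array was left out. Equal array medians shifted the median change of ATLO against outside-lesion by -0.117 and the share of calls that were higher from 56.3% to 44.1%. For outside-lesion against wild type they shifted the median by 0.172 and that share from 52.8% to 87.3%, and quantile normalization moved it to 67.9%. Under both scalings the calls in the set stayed at 11 for ATLO against outside-lesion and 0 for outside-lesion against wild type, whereas ATLO against wild type went from 9 to 11 (quantile) and 10 (equal medians).

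Whether the replicate numbers pair the samples could not be settled. Correlations of same-numbered deviations lay between 0.04 and 0.153 for ATLO with outside-lesion arrays, and different-numbered ones between -0.198 and 0.152. Over all same-numbered pairs, those with wild type included, they lay between -0.178 and 0.273. The number as a replicate block left the calls in the set at 11, 9 and 0 and gave 189 calls over all probe sets for outside-lesion against wild type.

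The sign turned for Icos 1421930_at against wild type with array weights (-0.032) and without ATLO replicate 1, with a range of -0.058 to 0.51 as each array was left out. All others were outside-lesion against wild type. Ctla4 turned to 0.11 (quantile), 0.072 (equal medians) and 0.37 (actin), and ranged from -0.37 to 0.11 as each array was left out. Cd28 1437025_at turned to -0.030 with the floor at the 40th percentile and ranged from -0.22 to 0.78, and Cd28 1417597_at from -0.069 to 0.78. Cd40 1449473_s_at turned to -0.11 with that floor and ranged from -0.27 to 0.54, and Cd86 1449858_at turned to 0.14 with actin and ranged from -0.59 to 0.18. Foxp3 ranged from -0.46 to 0.049. Signal over background limits Foxp3, Il2ra and Cd80 most.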
